A study of Homo sapiens with 2 samples.

Results

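The genes SMG1, PRKDC, ATM, TRRAP, MTOR and ATR encode the PI3K-related kinases, and 338 of the 370863 distinct intervals in the deposited LSD2 list have their midpoint inside one of them. The intervals were chosen by position alone, from the gene boundaries on the hg19 build: chromosome 16 from 18816175 to 18937776 for SMG1, chromosome 8 from 48685669 to 48872743 for PRKDC, chromosome 11 from 108093559 to 108239826 for ATM, chromosome 7 from 98475556 to 98610866 for TRRAP, chromosome 1 from 11166588 to 11322614 for MTOR and chromosome 3 from 142168077 to 142297668 for ATR. SMG1 itself was chosen from earlier readings of these positions, and the other members were named with those readings known. Density and width are therefore given as a description, and no test is applied to any of the 6 genes. The intervals come from chromatin immunoprecipitation and sequencing of LSD2 (1 library) set against input, the sonicated chromatin before precipitation (1 library). Both libraries were made from HepG2, an aneuploid line of human liver tumour origin, cultured with 25 mM glucose and 10% serum and given no other treatment. LSD2, the product of KDM1B, is a flavin-dependent demethylase of histone H3 lysine 4, known in other human cells to be found in the bodies of transcribed genes. The antibody was a rabbit polyclonal raised against recombinant human LSD2.

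PI3K-related kinases are very large serine and threonine kinases whose catalytic domain resembles that of the lipid kinase PI3K and is framed by the FAT and FATC regions. ATM responds to DNA breaks, ATR to exposed single-stranded DNA at stalled replication forks, and PRKDC is the catalytic subunit of DNA-PK, which acts with the Ku proteins in end joining. SMG1 phosphorylates UPF1 in nonsense-mediated mRNA decay, MTOR controls growth and translation in response to nutrients, and TRRAP has lost kinase activity and serves as a scaffold of histone acetyltransferase complexes. All are expressed widely, in liver cells too. Their partner genes (ATRIP, XRCC5, XRCC6, RPTOR, RICTOR, MLST8, SMG8, SMG9, UPF1, UPF2, TELO2, TTI1, TTI2, NBN, RAD50, MRE11, KAT5 and KAT2A) were not placed on the intervals, because the gene table used here is on GRCh38.p14 and the intervals are on hg19.

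Promoter sequences of 4 members are shown first. The distances between intervals and 5' ends given after them were measured from the hg19 gene boundaries, not from these sequences. RefSeq promoter windows on GRCh38.p14, which run from 250 bases before to 50 bases after a transcript start, were matched by symbol for 4 of the 6 genes. Capitals mark the GC box (GGGCGG, or CCGCCC on the other strand) and the CCAAT box (CCAAT, or ATTGG on the other strand), searched on both strands, and no GC box overlapped a CCAAT box in these windows.
SMG1, chr16:18926359-18926658, minus strand: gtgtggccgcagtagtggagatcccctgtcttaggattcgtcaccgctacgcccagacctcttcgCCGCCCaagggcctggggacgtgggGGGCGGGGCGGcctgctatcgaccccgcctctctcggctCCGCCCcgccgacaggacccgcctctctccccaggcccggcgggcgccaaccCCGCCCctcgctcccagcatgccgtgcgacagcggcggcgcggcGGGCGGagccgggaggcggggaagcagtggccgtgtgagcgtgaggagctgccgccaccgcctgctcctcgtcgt
ATM, chr11:108222817-108223116, plus strand: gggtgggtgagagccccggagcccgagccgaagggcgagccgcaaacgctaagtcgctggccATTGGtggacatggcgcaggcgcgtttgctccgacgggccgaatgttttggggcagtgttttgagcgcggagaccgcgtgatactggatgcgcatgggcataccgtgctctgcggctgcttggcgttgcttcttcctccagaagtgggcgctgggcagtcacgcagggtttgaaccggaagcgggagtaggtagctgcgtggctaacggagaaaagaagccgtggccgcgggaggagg
MTOR, chr1:11262502-11262801, minus strand: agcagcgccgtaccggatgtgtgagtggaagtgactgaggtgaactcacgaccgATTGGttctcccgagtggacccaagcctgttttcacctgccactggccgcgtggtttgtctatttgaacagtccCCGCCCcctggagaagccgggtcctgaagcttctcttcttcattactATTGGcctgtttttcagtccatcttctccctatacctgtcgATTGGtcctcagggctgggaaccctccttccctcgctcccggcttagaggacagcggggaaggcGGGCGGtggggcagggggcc
ATR, chr3:142578684-142578983, minus strand: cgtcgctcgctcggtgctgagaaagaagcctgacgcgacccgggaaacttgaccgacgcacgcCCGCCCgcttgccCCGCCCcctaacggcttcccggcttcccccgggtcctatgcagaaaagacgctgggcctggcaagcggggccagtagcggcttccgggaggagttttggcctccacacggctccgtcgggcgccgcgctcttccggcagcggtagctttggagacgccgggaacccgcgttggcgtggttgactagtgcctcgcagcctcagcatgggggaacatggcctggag

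The SMG1 window was the richest in G and C, at 74.7%, with 37 CpG dinucleotides and 6 GC boxes. The ATR window had 68.3% G and C, 34 CpG and 2 GC boxes, and the ATM window had 64.3%, 30 CpG and 1 CCAAT box. The MTOR window had 59.3%, 16 CpG, 2 GC boxes and 3 CCAAT boxes. Over the 34796 distinct promoter windows of the same length, the median was 58.7% G and C and 14 CpG, 44.9% held a GC box and 34.6% a CCAAT box. A second RefSeq window of ATM, not printed, had 62.3% G and C. A match to these letters describes the sequence and does not show that a factor binds there.

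An interval midpoint lay within 1 kb of the 5' boundary in 1 of the 6 genes, ATR, where an interval of 155 bp from 142297013 to 142297167 had its midpoint 578 bp inside the gene. Across the genome, 22.7% of fixed 2 kb windows held at least 1 midpoint, and 1 of 6 is not far from that share. The 6 genes together are denser than the whole list, at 38.6 against 13.0 per 100 kb. A share for 2 kb windows inside these genes was not computed. In PRKDC the nearest midpoint was 1174 bp inside the gene, in an interval of 147 bp. In the other 4 genes the nearest midpoint lay outside the gene, at 1541 bp for SMG1, 2316 bp for ATM, 2474 bp for MTOR and 3518 bp for TRRAP. The first midpoint inside those genes came at 3101 bp in SMG1, 5402 bp in ATM, 3651 bp in MTOR and 5426 bp in TRRAP. At the 3' boundary, 4 of the 6 genes (ATM, ATR, PRKDC and TRRAP) had a midpoint within 1 kb, beside the same 22.7% of windows. With 6 genes the difference between the ends was not tested. The nearest lay 178.5 bp inside ATM and the farthest, in SMG1, 3315 bp inside the gene. Promoter windows and intervals are on different builds, so their overlap was not computed.

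Intervals were dense in the bodies of 4 of these genes and less so in the other 2. SMG1 held 67 intervals in 121.6 kb, or 55.1 per 100 kb (95% Poisson interval 42.7 to 70.0, which covers counting only and treats neighbouring intervals as independent). PRKDC followed with 95 intervals in 187.1 kb, or 50.8 per 100 kb (41.1 to 62.1). The ratio of SMG1 to PRKDC was 1.08 (0.78 to 1.50), and their intervals overlapped widely. ATM held 59 intervals in 146.3 kb, or 40.3 per 100 kb (30.7 to 52.0), and TRRAP held 52 in 135.3 kb, or 38.4 (28.7 to 50.4). MTOR held 38 intervals in 156.0 kb, or 24.4 per 100 kb (17.2 to 33.4). ATR was the sparsest with 27 in 129.6 kb, or 20.8 (13.7 to 30.3). Each gene's interval overlapped that of its neighbours in this order. Of the ratios between neighbours, only that of TRRAP to MTOR, 1.58 (1.02 to 2.46), had an interval wholly above 1.

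Set against the whole list, all 6 genes were above its average of 13.0 intervals per 100 kb. Among the 28453 fixed 100 kb windows that hold an interval, 0.0246% reached the density of SMG1, which is 7 windows, and 0.0597% reached that of PRKDC, which is 17. The density of ATM was reached by 0.373% of windows and that of TRRAP by 0.552%. MTOR and ATR were less unusual, with 6.63% and 13.3% of windows at or above them. The windows include the genes themselves, and 1 of the 7 that reached the density of SMG1 overlapped SMG1. That was also the only one of the 786 windows of chromosome 16 to reach it. None of the 17 that reached the density of PRKDC overlapped PRKDC.

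**Figure D1:**
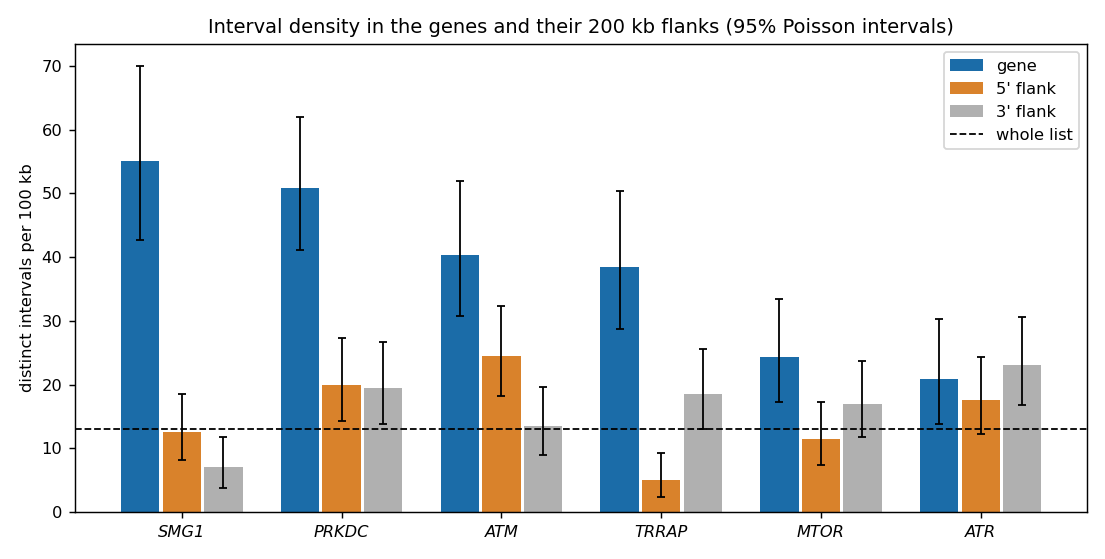
Distinct LSD2 intervals per 100 kb (vertical axis) in each gene, in the 200 kb before its 5' end and in the 200 kb after its 3' end, with 95% Poisson intervals as error bars and the whole-list average of 13.0 as a dashed line. SMG1 and PRKDC reach 55.1 and 50.8 per 100 kb, and in ATR the gene, at 20.8, lies between its flanks.

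When each gene was compared with the 200 kb on either side, SMG1, PRKDC, TRRAP and ATM were denser than both flanks, MTOR was so only with some choices of flank, and ATR lay between its flanks. SMG1 had 55.1 intervals per 100 kb, against 12.5 in its 5' flank, where TMC7 is the nearest protein-coding gene, and 7.0 in its 3' flank, on the side of ARL6IP1. The ratio of SMG1 to both flanks was 5.65 (3.75 to 8.62, from the exact binomial share and covering counting only). The 3' flank of SMG1 held 14 intervals and a stretch of 127.5 kb with none. With interval-free stretches over 20 kb left out of the lengths, the ratio was 3.46 (2.29 to 5.27). Whether reads could be placed in that stretch was not tested.

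PRKDC had 95 intervals in 187.1 kb, against 40 in the 200 kb of its 5' flank, on the side of MCM4, and 39 in the 200 kb of its 3' flank, on the side of CEBPD. This gave a ratio of 2.57 (1.89 to 3.51), nearly the same on both sides. TRRAP had 38.4 per 100 kb, against 5.0 in its 5' flank and 18.5 in its 3' flank, towards SMURF1. Its ratio to both flanks was 3.27 (2.16 to 4.96), with 7.69 to the 5' flank and 2.08 to the 3' flank. The 5' flank of TRRAP held 10 intervals, and 137.9 kb of it lay in interval-free stretches over 20 kb.

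ATM had 40.3 intervals per 100 kb, against 24.5 in its 5' flank, on the side of NPAT, and 13.5 in its 3' flank. The ratio was 2.12 (1.49 to 3.02) to both flanks and 1.65 (1.11 to 2.46) to the denser 5' flank, but 0.94 (0.56 to 1.51) when only intervals listed once were counted. MTOR had 24.4 per 100 kb, against 11.5 in its 5' flank and 17.0 in its 3' flank, on the side of EXOSC10. Its ratio was 1.71 (1.10 to 2.62) to both flanks, but 1.06 (0.67 to 1.66) with flanks of 100 kb and 0.90 (0.58 to 1.38) without interval-free stretches. ATR had 20.8 per 100 kb, against 17.5 in its 5' flank and 23.0 in its 3' flank, towards XRN1, a ratio of 1.03 (0.64 to 1.61). Depth and copy number at these loci were not measured here, and either can change how many regions pass a cutoff.

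**Figure D2:**
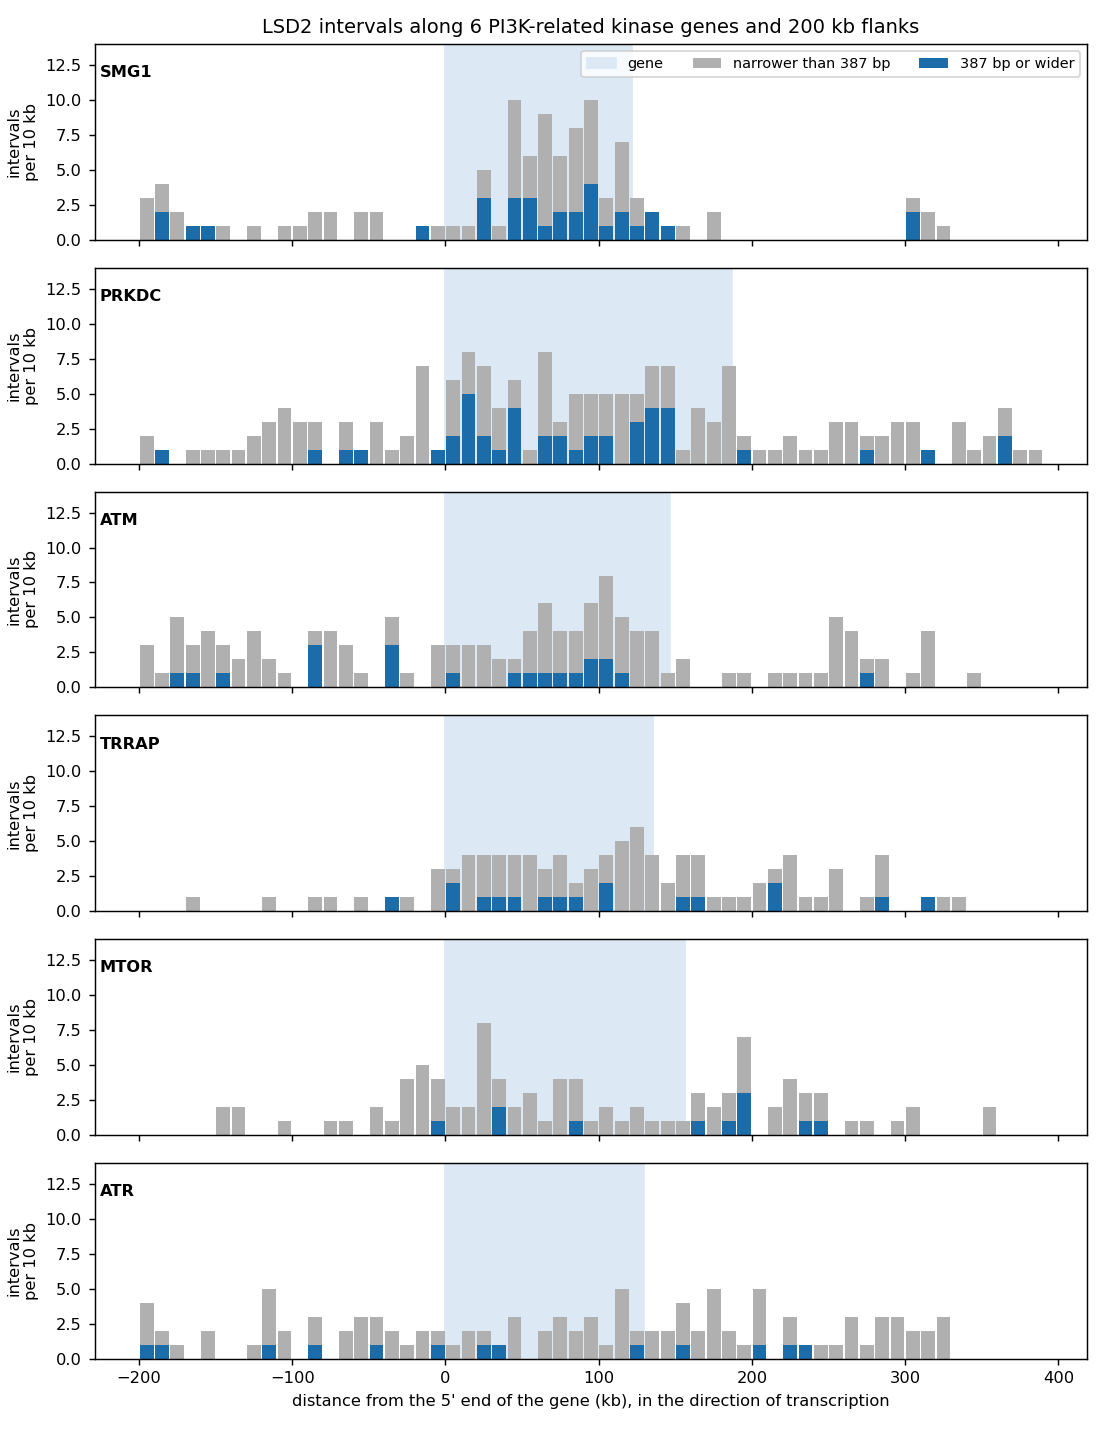
Distinct intervals per 10 kb (vertical axis) by distance from the 5' end in the direction of transcription (horizontal axis, kb), with the gene shaded and intervals of 387 bp or wider in blue. In SMG1 the counts are low near the 5' end and lie between 3 and 10 per 10 kb from 40 kb on within the gene, and the 3' flank has a stretch of 127.5 kb without an interval.

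Within SMG1 the intervals lay in the middle and 3' parts of the gene. With the gene cut into 3 equal lengths, the 5' part held 8 intervals (19.7 per 100 kb), the middle part 33 (81.4 per 100 kb) and the 3' part 26 (64.1 per 100 kb). With the gene cut into 10 equal lengths, the first from the 5' end held 1 interval and the eighth held 11, the lowest and the highest counts. A run of 23 intervals with gaps of up to 2 kb filled 25.7 kb of the gene from 18871259 to 18896972, between 40.8 and 66.5 kb from the 5' end. Its intervals were 144 to 911 bp wide, with gaps of 135 to 1638 bp. Intervals in runs of 15 or more make up 0.242% of the whole list, and this was the only run among the 6 genes and their flanks. Without it the ratio of SMG1 to its flanks was 3.71 (2.36 to 5.87). With gaps of up to 3 kb, 49 of the 67 intervals of SMG1 formed 1 chain, and the longest such chains elsewhere were 18 in PRKDC and 17 in ATM. RefSeq lists 7 pseudogenes named SMG1P1 to SMG1P7 on chromosome 16, and reads from near-identical copies may have been split, lost or placed at the wrong copy. The sources used here do not say how reads with several matches were treated, so counts in SMG1 may be too low or too high. This was not tested.

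The other genes had other shapes. In PRKDC the 5', middle and 3' parts were nearly even, with 35, 31 and 29 intervals, and 10 equal parts held from 5 to 13. TRRAP was also even, with 17, 15 and 20 intervals in the same parts. ATM had 13 intervals in its 5' part and 23 in each of the others. MTOR ran the opposite way, with 18 in the 5' part, 13 in the middle and 7 in the 3' part, and of 10 equal parts the second alone held 10. ATR had 7, 9 and 11 from 5' to 3'. Counts in the 50 kb on either side of a boundary differed in size and direction between genes. In the 50 kb on the inner side of the 3' boundary SMG1 held 33 intervals, against 7 in the 50 kb outside it, and ATM held 23, against 4. At the 5' boundary TRRAP held 19 inside, against 5 outside, and PRKDC held 31, against 14. MTOR held 18 inside its 5' boundary, against 16 outside, and 7 inside its 3' boundary, against 16 outside. ATR held 9 inside its 5' boundary, against 10 outside, and 13 inside its 3' boundary, against 15 outside.

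Spacing ran in the order of density for SMG1, PRKDC, ATM, TRRAP, MTOR and ATR. Gaps and density come from the same intervals, so this order is not a separate result. The median gap between neighbouring intervals was 866 bp in SMG1 and 913 bp in PRKDC. It was 1486 bp in ATM, 1686 bp in TRRAP, 2241 bp in MTOR and 3236 bp in ATR. Gaps under 1 kb were 39 of 66 in SMG1 and 51 of 94 in PRKDC, but 5 of 26 in ATR. The share of such gaps over the whole list was not computed, so these counts have no background beside them. The longest gap inside any of the genes was 16.2 kb, in ATR.

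Median widths were larger in the denser genes SMG1, PRKDC, TRRAP and ATM than in MTOR and ATR, but did not follow density throughout. ATM was denser than TRRAP, at 40.3 against 38.4 intervals per 100 kb, yet had the smaller median. The 95% interval of the ATR median overlapped that of every other gene. The median width was 331 bp in SMG1 (95% interval of the median 281 to 357 bp), against 208 bp in its flanks, and 308 bp in PRKDC (238 to 363), against 205 bp in its flanks. The flanks of SMG1 were unlike each other, at 167 bp in the 5' flank and 357.5 bp in the 14 intervals of the 3' flank, which is above the gene. In TRRAP it was 283 bp (230 to 335), against 212 bp, and in ATM 259 bp (203 to 323), against 171.5 bp. MTOR had a median of 191.5 bp (166 to 248), against 211 bp in its flanks, and ATR 182 bp (153 to 324), against 176 bp. The whole list had a median of 173 bp, below the median of each of the 6 genes. Width and density are not separate lines of evidence, since both can grow with the number of reads from a region.

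Intervals of 387 bp or wider, a width at the 90th percentile of the list, were 34 of 95 in PRKDC (35.8%, exact 95% interval 26.2 to 46.3%) and 21 of 67 in SMG1 (31.3%, 20.6 to 43.8%), against 10.0% of the whole list. In the flanks they were 12.7% for PRKDC and 28.2% for SMG1, with 42.9% in the 3' flank of SMG1 (6 of 14) and 20% in its 5' flank (5 of 25). TRRAP had 10 of 52 (19.2%, 9.63 to 32.5%), against 14.9% in its flanks. ATM had 11 of 59 (18.6%, 9.69 to 30.9%), against 13.2% in its flanks. The 95% intervals of TRRAP and ATM include the share of their flanks and that of the whole list. That of SMG1 includes the share of its pooled flanks but not that of the whole list, and that of PRKDC includes neither. MTOR and ATR had 3 each, or 7.89% and 11.1%, near the whole list. Intervals covered 19.6% of the bases of SMG1, 17.0% of PRKDC, 11.8% of TRRAP, 11.6% of ATM, 5.69% of MTOR and 5.09% of ATR, and 3.97% of all flanks together.

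**Figure D3:**
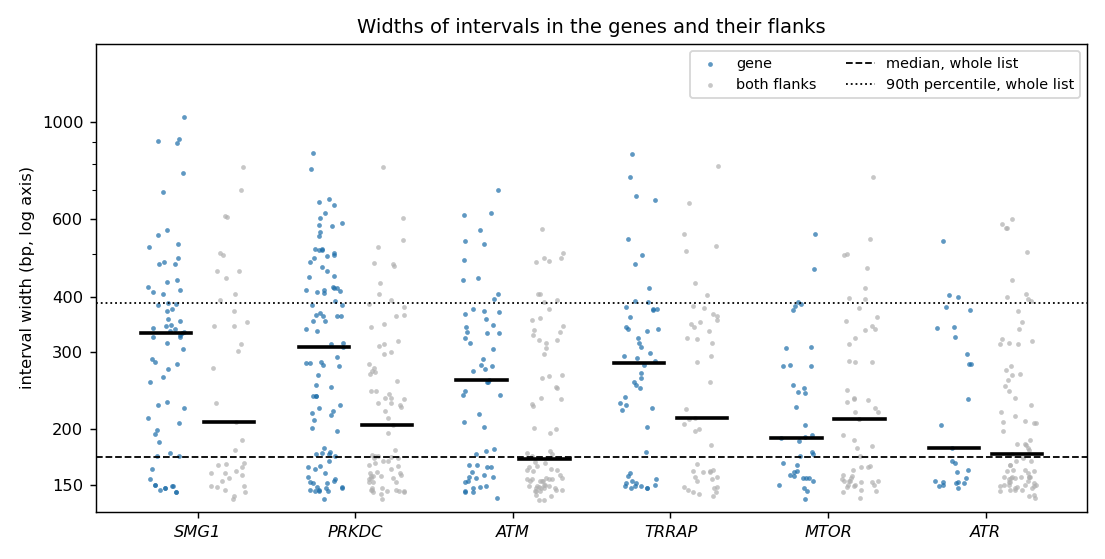
Width of each interval (vertical axis, bp, log scale) in the 6 genes (blue, left of each pair) and in both 200 kb flanks (grey), with medians as black bars and the whole-list median (173 bp, dashed) and 90th percentile (387 bp, dotted). The medians of SMG1 and PRKDC are 331 and 308 bp, against 208 and 205 bp in their pooled flanks, and the 3' flank of SMG1 by itself has 357.5 bp.

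The widest member was an interval of 1025 bp in SMG1, from 18852253 to 18853277 on chromosome 16, 85.0 kb from the 5' end. The next in SMG1 were 911 bp from 18878878, inside the run, and 905 bp from 18907601. PRKDC had intervals of 847 bp from 48737171 and 779 bp from 48773357, and TRRAP one of 844 bp from 98499398. In ATM the widest was 701 bp, from 108188545 to 108189245, in MTOR 555 bp from 11283501, and in ATR 536 bp from 142266196. The widest interval of each of these 6 genes lay between 24.3 and 135 kb from the 5' boundary. Promoters inside the genes were not placed on hg19. Exons and introns of the hg19 build were not used here, so intervals within the genes are not assigned to either.

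ATM stood apart in how its intervals were listed. Of its 59 intervals, 35 occurred more than once in the deposited list (59.3%, exact 95% interval 45.8 to 71.9%), against 7.89% in its flanks and 10.1% of the whole list. The last 30 of them in the gene formed an unbroken stretch from 108181110 to 108239725, from 87.5 kb to 146.2 kb after the 5' end, in which every interval was listed more than once. Outside it, 5 of 29 intervals of ATM were repeated. By order of gene start in RefSeq, C11orf65 follows ATM on that side, and whether the body of C11orf65 overlaps ATM was not checked. MTOR had 13 of 38 repeated (34.2%), SMG1 8 of 67 (11.9%) and PRKDC 4 of 95 (4.21%). TRRAP had 7 of 52 (13.5%), 6 of them in the last of 10 equal parts, and ATR 5 of 27 (18.5%). In ATM, repeated intervals had a median width of 245 bp and those listed once 269 bp. Counting every line, ATM had 3.13 times the density of its flanks (2.31 to 4.27). The sources used here do not say why lines are repeated, and this was not tested.

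**Figure D4:**
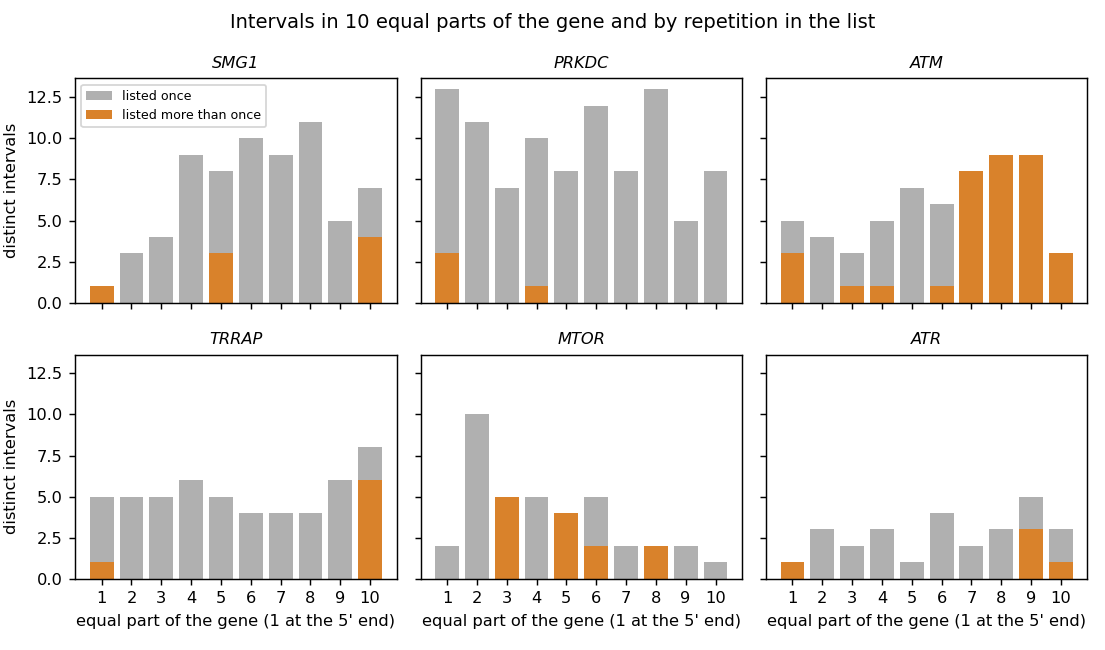
Distinct intervals (vertical axis) in 10 equal parts of each gene from the 5' to the 3' end (horizontal axis), split into intervals listed once (grey) and more than once (orange). In ATM all 29 intervals of the last 4 parts are listed more than once, while PRKDC has 4 such intervals of 95.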

How the data were processed

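One LSD2 ChIP library and one input library of HepG2 cells gave a single deposited list of intervals. The submitters' processing notes name BWA and hg19. Per the file headers, the authors trimmed reads, removed duplicates and ran MACS for LSD2 against input with a fragment length of 120 bp, a p-value cutoff of 1e-05 and an enrichment factor of 32. The deposited values are start and end positions in bases, with no score or p per interval, and depth is unknown.

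The 414095 lines were reduced to 370863 distinct intervals, with starts read as counted from 0 and printed from 1. An interval belonged to a gene by its midpoint. Gene boundaries and members were chosen with earlier results of these data known, and so was the definition of runs. Strands came from the RefSeq promoter table, except those of PRKDC and TRRAP, which are general knowledge. Genes were compared with flanks of 200 kb, with exact Poisson and Clopper-Pearson 95% intervals. With 1 library per group there is no replicate error and no test. The text names the members, their neighbours by order of gene start, the widest intervals and the fullest and emptiest of 10 equal parts, as planned. The counting functions were tested on simulated data. Python 3.11.15, pandas 2.3.3 and scipy 1.17.1 were used.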

Additional observations from a re-analysis of the deposited data

How the results depend on the processing

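Density ratios, median widths and shares of wide intervals were recomputed in 114 combinations of result and alternative. Of these, 31 equalled the value reported, among them the 18 that counted any overlap, since no interval crossed a boundary in a way that changed a count, and 10 that left out runs from genes with none. Of the other 83, 74 stayed within the 95% interval of the value reported, which covers counting only, and 9 did not. Leaving out interval-free stretches over 20 kb and counting only intervals listed once were added after the data were seen. The 9 density ratios that moved were those of SMG1 (3.71 without runs, 3.46 without interval-free stretches, against 5.65), ATM (3.13 with every line, 0.94 with intervals listed once, against 2.12), MTOR (1.06 with flanks of 100 kb, 0.90 without interval-free stretches, against 1.71) and TRRAP (7.69 for the 5' flank, 2.08 for the 3' flank, 1.90 without interval-free stretches, against 3.27). Each change follows from which intervals or lengths the alternative counts. Why lines are repeated and why flanks differ was not tested. Of 66 alternative ratios, 60 were above 1. They are recounts of the same list and not independent of each other, and every ATR ratio among them had an interval that included 1. No paired analysis was possible because there was a single library of each kind. Depth was not known, and a gene with few reads can hold few intervals.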
